A study of Homo sapiens with 48 samples.

Results

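The genes described here are 10 transcription factors of the neural crest and melanocyte lineage, TFAP2A, TFAP2C, PAX3, FOXD3, SNAI2, ZEB1, ZEB2, TWIST1, ETS1 and IRF4, out of 58870 genes listed in the count files. They were named as a list and looked up by gene identifier, and all 10 were found. The 48 sequenced samples form 16 groups of 3 and come from the uveal melanoma lines 92-1, MEL202 and MP41, all established cell lines. Cells were given FHT-1015, an inhibitor of SMARCA4 and SMARCA2, the ATPases of BAF chromatin remodelling complexes, or the solvent DMSO, for 4 h or 24 h. Line 92-1 was also given IDE196, an inhibitor of protein kinase C, beside a DMSO set of its own, at the same times. All groups carry the genotype label WT, and the doses are not given in the sources used here. Each line is a single tumour-derived culture, and the labels call its replicates biological without saying what separates them, so p-values measure the spread between these samples, which may be technical.

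Melanocytes arise from the neural crest, a migratory population that leaves the embryonic neural tube. TFAP2A, PAX3 and FOXD3 act early in it, PAX3 together with SOX10 switches on MITF, and FOXD3 holds back the pigment fate. SNAI2, ZEB1, ZEB2 and TWIST1 are repressors of the epithelial state that allow crest cells to detach, and melanocytes usually express ZEB2 and SNAI2. ETS1 is an ETS-family activator of crest and endothelial cells, and IRF4, best known from lymphocytes, acts with MITF on the tyrosinase gene in pigment cells.

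A sample had between 11394088 and 32317711 reads in genes. One FHT-1015 library of MEL202, replicate 2 at 4 h, stood apart, with 17592 genes having a read against at least 20023 in the other samples. Without it, 1 of 10 members was called in MEL202 at 4 h, IRF4 (log2 fold change -2.48, adjusted p 0.0216), against 0 with it. The spread between replicates, as the biological coefficient of variation over all genes, was 0.117 for FHT-1015 and 0.112 for IDE196 in 92-1, 0.217 in MP41 and 0.294 in MEL202. All 7 melanocyte markers examined (MLANA, PMEL, TYR, TYRP1, DCT, SOX10 and MITF) had means over 1 CPM, the read count scaled to library size, in the DMSO samples of every line. Their summed level was 18994 to 23060 CPM in the DMSO samples of 92-1 in the FHT-1015 experiment. Of 7 leukocyte markers, which bear on IRF4, LYZ passed 1 CPM in MEL202 DMSO samples and CD79A and LYZ in those of MP41, with sums of 2.85 to 5.49 CPM in both lines. None of them passed it in 92-1, where the sum was at most 1.76 CPM in DMSO samples. The 5 fibroblast markers, which bear on TWIST1 and ZEB1, summed to 19.3 to 43.6 CPM in MP41 DMSO samples and to 2.15 to 3.97 CPM in those of MEL202. The 4 epithelial markers summed to at most 25.0 CPM in any sample, and the part of other cell types in the results was not tested.

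In DMSO at 4 h the lines shared a core of highly expressed members and differed most in IRF4, FOXD3, TFAP2C and SNAI2. Levels between genes are compared here as CPM per kilobase of exon, with all annotated exons of a gene merged. In 92-1 the order ran from SNAI2 at 63.5 ± 6.38 (SD, n = 3) through ETS1 at 42.98 ± 4.19, TFAP2A at 41.2 ± 4.69, PAX3 at 32.3 ± 0.716 and TWIST1 at 17.3 ± 2.65 to ZEB2 at 5.13 ± 0.227. The lowest in that line were TFAP2C at 3.41 ± 0.665, FOXD3 at 2.37 ± 0.382, ZEB1 at 0.614 ± 0.0685 and IRF4 at 0.154 ± 0.0590 CPM per kilobase. Neighbours ETS1 and TFAP2A overlapped between samples in 92-1, as did TFAP2C and FOXD3, so their order is not resolved. In MEL202 the first 5, TFAP2A at 35.5 ± 2.82, ETS1 at 33.9 ± 7.34, SNAI2 at 32.8 ± 10.8, TWIST1 at 23.5 ± 4.92 and PAX3 at 19.5 ± 1.81, each overlapped the next. They were followed by TFAP2C at 12.4 ± 1.17, then FOXD3 at 5.87 ± 1.80 and ZEB2 at 5.46 ± 2.18, which overlapped, and IRF4 at 0.876 ± 0.373. ZEB1 came last in MEL202 at 0.0556 ± 0.00821 CPM per kilobase. In MP41 the order was led by ETS1 at 55.1 ± 9.30, TFAP2A at 25.97 ± 2.36 and IRF4 at 17.3 ± 2.04. PAX3 at 12.5 ± 1.06 and TWIST1 at 11.2 ± 1.71 overlapped there, and ZEB2 at 6.62 ± 0.351 and SNAI2 at 4.51 ± 1.02 came next. ZEB1 at 0.505 ± 0.101 and TFAP2C at 0.403 ± 0.0531 overlapped in MP41, and FOXD3 had 0 reads. With the exons of the basic annotation set alone, the order of means among the highest members changed. In 92-1 TFAP2A and PAX3 then stood above ETS1, though PAX3 and ETS1 overlapped between samples, and in MP41 PAX3 stood above IRF4. ZEB2, for example, has 25058 exon bases over all transcripts and 13357 in the basic set.

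**Figure D1:**
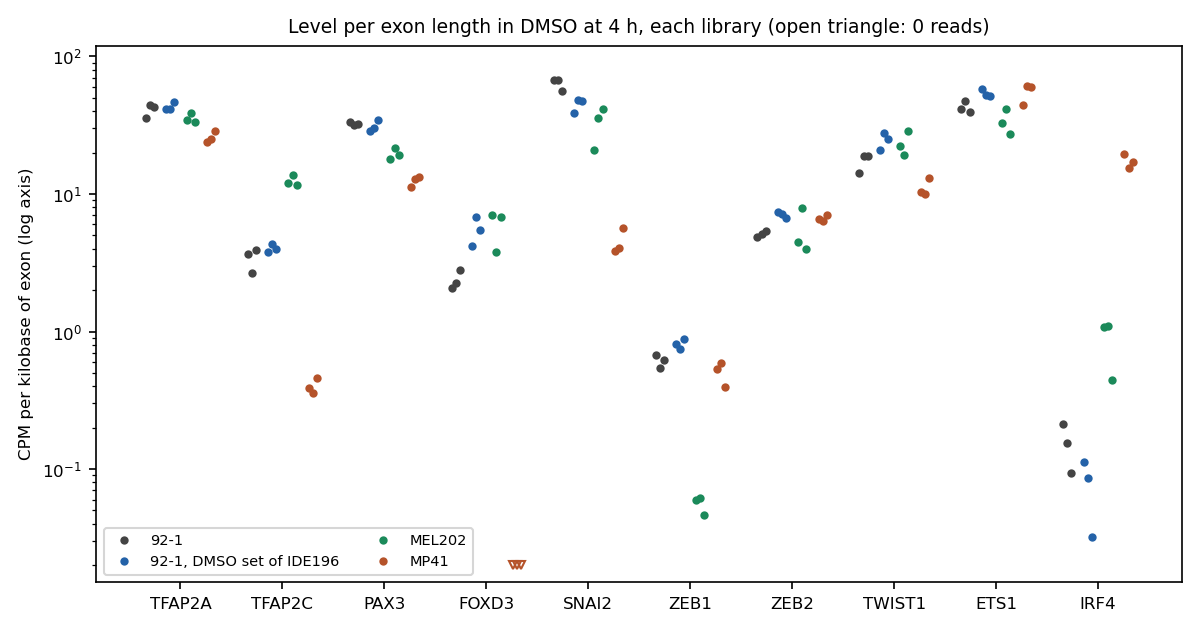
Level of each of the 10 genes in DMSO at 4 h, as CPM per kilobase of exon on a log axis, with 1 point per library and 4 groups of 3 libraries (grey 92-1, blue the DMSO set of the IDE196 experiment, green MEL202, brown MP41). IRF4 spans the widest range of the genes read in all 3 lines, ZEB1 is lowest in MEL202, and the open triangles mark the 3 MP41 libraries with 0 reads of FOXD3.

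Between lines in DMSO at 4 h, tested on log2 levels in 1 fit of the 36 samples of the FHT-1015 experiments, 6 of 10 members differed between MEL202 and 92-1 at an adjusted p under 0.05, where 38.1% of all genes did. Between MP41 and 92-1 the number was 7 of 10, beside 48.8% of all genes, and between MP41 and MEL202 it was 9 of 10, beside 43.2%. In bulk RNA, fewer cells of a type and less RNA per cell cannot be told apart. IRF4 was higher in MP41 than in 92-1 by 6.83 (SE 0.37, adjusted p 5.77e-16) on the log2 scale and higher in MEL202 than in 92-1 by 2.53 (SE 0.36, adjusted p 1.05e-06). SNAI2 was lower in MP41 than in 92-1, with a log2 difference of -3.78 (SE 0.34, adjusted p 4.94e-11). TFAP2C was highest in MEL202, with log2 differences of 1.90 (SE 0.26, adjusted p 7.65e-07) from 92-1 and -4.94 (SE 0.32, adjusted p 3.26e-14) for MP41 against MEL202. ZEB1 was lower in MEL202 than in 92-1, at -3.41 (SE 0.49, adjusted p 1.34e-06), while ZEB2 did not pass the test in any pair of lines at 4 h. In DMSO at 24 h it was higher in MEL202 than in 92-1 (log2 0.68, adjusted p 0.00616) and lower in MP41 than in MEL202 (log2 -0.75, adjusted p 0.00192). At 4 h it was higher in MP41 than in MEL202 without MEL202 DMSO replicate 2 (log2 0.64, adjusted p 0.00662) and higher in MP41 than in 92-1 when scaled by library size alone (log2 0.56, adjusted p 0.0206). ETS1 passed between MP41 and 92-1 with that scaling (log2 0.55, adjusted p 0.0196) or without MP41 DMSO replicate 1 (log2 0.53, adjusted p 0.0459), and between MEL202 and the other DMSO set of 92-1 (log2 -0.67, adjusted p 0.00276). TWIST1 passed between MEL202 and 92-1 without MEL202 DMSO replicate 2 (log2 0.61, adjusted p 0.0456). The call of FOXD3 between MEL202 and 92-1 was lost against the other DMSO set (adjusted p 0.776), and that of TFAP2A between MP41 and MEL202 with library-size scaling (0.0853). PAX3 descended from 92-1 to MEL202 (log2 difference -0.70, SE 0.10, adjusted p 2.32e-06) to MP41 (log2 difference -0.64, SE 0.10, adjusted p 7.1e-06). At 24 h the PAX3 difference between MEL202 and 92-1 was lost (adjusted p 0.152). SNAI2 was lower in MEL202 than in 92-1, with a log2 difference of -0.93 (SE 0.30, adjusted p 0.0147), a call lost without MEL202 DMSO replicate 1 (log2 -0.68, adjusted p 0.108) in DMSO at 24 h (adjusted p 0.352) and against the other DMSO set of 92-1 (0.18). TWIST1 was lower in MP41 than in 92-1, with a log2 difference of -0.60 (SE 0.22, adjusted p 0.0274), a call lost on leaving out replicate 2 or 3 of 92-1 or replicate 1 or 2 of MP41 (adjusted p up to 0.102), in DMSO at 24 h (0.0658) and when scaled by library size alone (0.105). Over the 3 lines' DMSO samples, no member was called for time: between 24 h and 4 h, 0 of 10 members passed in 92-1, 0 of 10 in MEL202, 0 of 9 tested in MP41 and 0 of 10 in the DMSO set of the IDE196 experiment, with edgeR's quasi-likelihood test. Over all genes 0.344%, 0%, 2.59% and 0.266% passed, in the same order, and at an unadjusted p under 0.05 the members numbered 3, 0, 2 and 2, beside 8.81%, 2.07%, 29.8% and 14.3% of all genes. No other tool was run on that contrast.

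Members were called with both drugs in 92-1 at both times and, with FHT-1015, in MEL202 and MP41 at 24 h. Each count is to be read against the share of all genes beside it. At 24 h that share was itself high in 92-1 and MP41, and the counts were not tested against it. With FHT-1015 in 92-1, 7 of 10 members were called at 4 h (3 higher, 4 lower), where 29.5% of all genes tested were, and 8 of 10 at 24 h (3 higher, 5 lower), beside 60.6%. In MEL202 0 of 10 were called at 4 h, beside 0.679% of all genes, and 6 of 10 at 24 h (1 higher, 5 lower), beside 18.8%. In MP41 0 of the 9 members tested were called at 4 h, beside 0.225%, and 4 of 9 at 24 h (2 higher, 2 lower), beside 36.1%. FOXD3 was not tested in MP41. At an unadjusted p under 0.05 the 4 h counts were 1 in MEL202, beside 8.58% of all genes, and 3 in MP41, beside 5.78%. DESeq2's Wald test called 1 member in MEL202 and 0 in MP41 at 4 h, beside 2.39% and 1.09% of all genes. Limma-voom with quality weights called 1 and 2, beside 0.723% and 4.18%. With IDE196 in 92-1, 4 of 10 members were called at 4 h (2 higher, 2 lower), beside 16.2% of all genes, and 9 of 10 at 24 h (7 higher, 2 lower), beside 58.1%. The median log2 fold change of the tested members against that of all genes was -0.0075 against 0.0071 at 4 h and -0.37 against -0.00082 at 24 h with FHT-1015 in 92-1, -0.62 against -0.0055 in MEL202 at 24 h, 0.19 against 0.065 in MP41 at 24 h and 0.71 against 0.029 with IDE196 at 24 h.

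**Figure D2:**
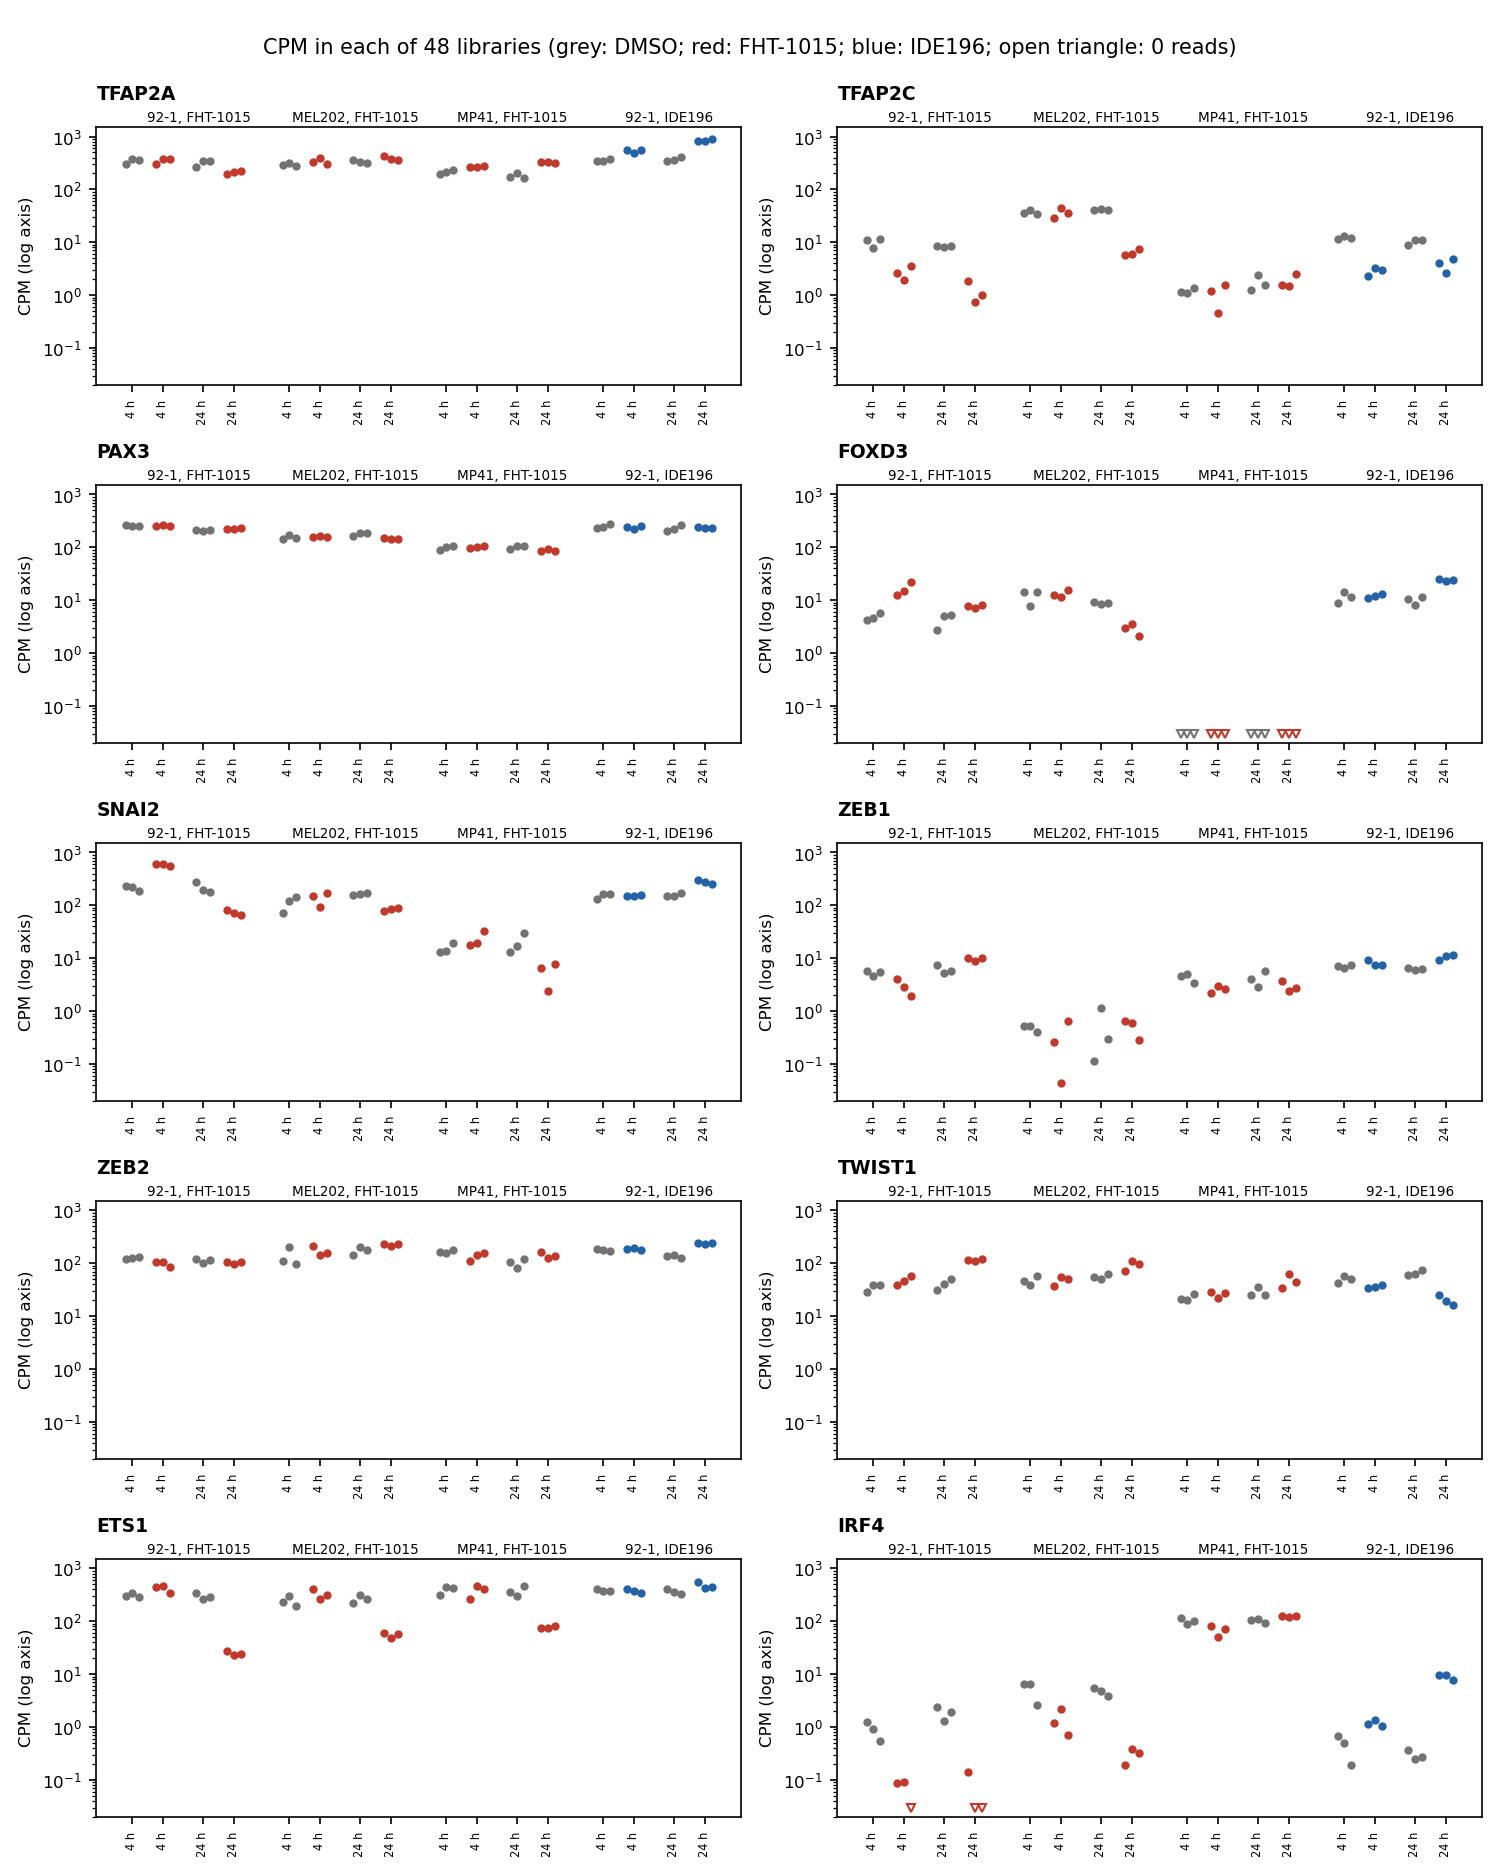
CPM of each gene in each of the 48 libraries on a log axis, 1 panel per gene and 1 point per library, grouped by experiment, time and treatment (grey DMSO, red FHT-1015, blue IDE196, open triangles 0 reads). ETS1 stands below every DMSO library in the 9 FHT-1015 libraries at 24 h and IRF4 is near 0 in 92-1 with FHT-1015 and lies between 49.7 and 127 CPM in MP41.

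**Figure D3:**
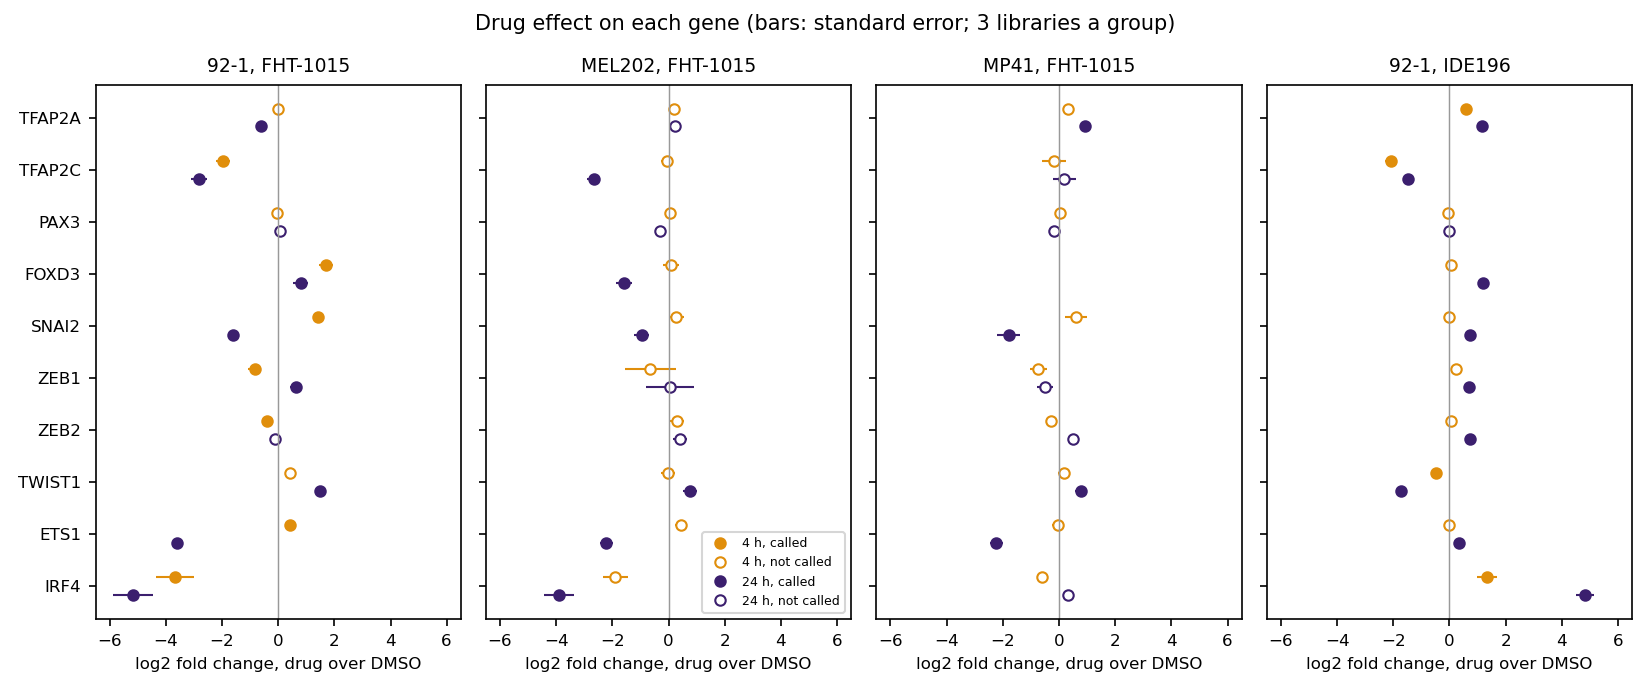
Log2 fold change of drug over DMSO for each gene in the 4 experiments, at 4 h (orange) and 24 h (purple), with bars of 1 standard error and filled points for an adjusted p under 0.05. TFAP2C and IRF4 are on the lower side in 92-1 and MEL202 with FHT-1015 at 24 h, SNAI2 is on opposite sides at the 2 times in 92-1, and PAX3 has no filled point.

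TFAP2A encodes AP-2 alpha (chr6:10393186-10419659, minus strand, GRCh38), which activates crest and melanocyte genes, and its direction under FHT-1015 at 24 h differed between lines. In 92-1 at 24 h it had 266, 349 and 339.8 CPM in the 3 DMSO samples and 197, 215 and 223 CPM with FHT-1015, every treated sample lower than every DMSO sample. The log2 fold change was -0.61 (SE 0.13, adjusted p 0.000606). In MP41 the DMSO samples had 172, 201 and 165 CPM and the treated ones 329, 327 and 318 CPM, all higher, for 0.92 (SE 0.12, adjusted p 5.35e-05). In MEL202 the groups overlapped, with means of 331 ± 22.5 and 386 ± 38.04 CPM (SD, n = 3) and a log2 fold change of 0.24 (SE 0.18, adjusted p 0.41). Limma-voom called it higher there (log2 0.27, adjusted p 0.0193). The effect differed among the 3 lines at 24 h (adjusted p 7.57e-06). At 4 h edgeR's test called TFAP2A in no line. In MP41 at 4 h the DMSO samples had 199, 209 and 237 CPM and the treated ones, all higher, 262, 266 and 271 CPM, for 0.31 (SE 0.12, adjusted p 0.625), and limma-voom called it (log2 0.30, adjusted p 0.0313). IDE196 raised TFAP2A in 92-1 at both times. DMSO samples at 24 h had 339, 353 and 407 CPM and IDE196 samples 831, 841 and 883 CPM, an increase of 2.25-fold (log2 fold change 1.17, SE 0.09, adjusted p 7.24e-09). At 4 h the log2 fold change was 0.58 (SE 0.089, adjusted p 0.000189). The antisense genes TFAP2A-AS1 and TFAP2A-AS2 share 438 and 941 exon bases with TFAP2A. At 24 h both rose in MP41 with FHT-1015 (log2 1.71 and 1.44) and with IDE196 (log2 1.40 and 0.90), and TFAP2A-AS2 fell in 92-1 with FHT-1015 (log2 -0.74). Without strand, a read over exons of TFAP2A and an antisense gene is ambiguous in this count layout, and such reads stayed out of the values.

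TFAP2C encodes AP-2 gamma (chr20:56629302-56639283, plus strand), a close relative that binds the same DNA motif. It was the member that both drugs lowered in 92-1. In 92-1 at 4 h it stood at 11.1, 7.96 and 11.7 CPM in DMSO and 2.64, 1.91 and 3.49 CPM with FHT-1015, a decrease of 3.93-fold (log2 fold change -1.97, SE 0.25, adjusted p 2.05e-05). By 24 h the samples were at 8.59, 8.23 and 8.66 and 1.88, 0.733 and 1.02 CPM, 7.03-fold lower with the drug (log2 fold change -2.81, SE 0.29, adjusted p 5.4e-07). With IDE196 it was 4.27-fold lower at 4 h (log2 fold change -2.09, SE 0.20, adjusted p 1.03e-06), from 11.4, 13.1 and 11.997 to 2.34, 3.23 and 3.05 CPM. At 24 h IDE196 lowered it 2.75-fold, from 8.72, 10.9 and 11.1 to 4.10, 2.68 and 4.76 CPM (log2 fold change -1.46, SE 0.19, adjusted p 4.16e-06). None of these groups overlapped. MEL202 started highest and showed a fall at 24 h alone among its 2 times: at 4 h the groups overlapped at 35.9, 41.3 and 34.8 and 28.3, 45.3 and 35.04 CPM (log2 fold change -0.047, SE 0.21, adjusted p 0.979). At 24 h they were 41.2, 43.2 and 40.7 CPM in DMSO and 5.82, 6.13 and 7.40 CPM with FHT-1015 (log2 fold change -2.67, SE 0.22, adjusted p 5.82e-06). The 24 h effect minus the 4 h effect in MEL202 was -2.62 (SE 0.30, adjusted p 0.000359) on the log2 scale. MP41 had 9 to 64 reads of TFAP2C per sample, overlapping groups and a log2 fold change of 0.19 (SE 0.39, adjusted p 0.727) at 24 h. The FHT-1015 effect differed among lines at 4 h (adjusted p 0.00625) and at 24 h (adjusted p 7.16e-06). The 4 h call was lost without replicate 2 of 92-1 with FHT-1015 (adjusted p 0.055).

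PAX3, a paired-box factor that acts early in crest cells and upstream of MITF (chr2:222199888-222298996, minus strand), was the member called in none of the 8 drug comparisons by edgeR's test. Its upstream sequence is shown as that of the member with no called change. The 250 bases before its RefSeq start (chr2:222298999-222299248, minus strand, GRCh38.p14, written 5′ to 3′ on its own strand) held none of the 6 motifs searched:
PAX3: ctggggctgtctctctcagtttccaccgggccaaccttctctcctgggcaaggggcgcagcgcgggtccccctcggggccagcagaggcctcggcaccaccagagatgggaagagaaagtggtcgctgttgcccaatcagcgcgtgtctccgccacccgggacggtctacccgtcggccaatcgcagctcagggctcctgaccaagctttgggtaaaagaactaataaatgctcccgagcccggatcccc
In 92-1 it had 217, 205 and 216 CPM in DMSO at 24 h and 218, 226 and 233 CPM with FHT-1015 (log2 fold change 0.066, SE 0.067, adjusted p 0.413). With IDE196 at 24 h it had 246, 228 and 232 CPM beside 205, 223 and 265 in DMSO (log2 fold change -0.022, SE 0.10, adjusted p 0.861). In MEL202 at 24 h the DMSO samples were at 167, 189 and 190.4 CPM and the FHT-1015 samples, all lower, at 148, 145 and 147 CPM, for -0.29 (SE 0.16, adjusted p 0.254). That difference was past the threshold under limma-voom and in a fit of all 48 samples (adjusted p 0.00165 and 0.0159). In MP41 at 24 h the log2 fold change was -0.18 (SE 0.12, adjusted p 0.284), with 93.3, 108 and 107 CPM in DMSO and 85.9, 92.1 and 84.1 with the drug. The log2 fold changes at 4 h lay between -0.054 and 0.06 over the 4 experiments.

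The motifs searched, on both strands and in the whole windows of 250 bases before to 50 after each RefSeq start, were GCCNNNGGC of the TFAP2 factors, the E-box CANNTG bound by TWIST1, SNAI2, ZEB and MITF proteins, its M-box form CATGTG, the SOX factor motif written ACAAAG, the ETS factor motif CCGGAA and the AP-1 motif TGANTCA. Of 35116 windows over all genes, 23.2% held the TFAP2 motif, 68.7% an E-box, 11.1% an M-box, 24.5% the SOX motif, 17.2% the ETS motif and 7.7% the AP-1 motif. The SOX search also took the spelling ACAATG. Each M-box is also counted as an E-box. Windows were matched for 6 of the 10 members, TFAP2A, PAX3, FOXD3, ZEB1, ZEB2 and IRF4. A match is a description of letters and not a bound site.

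FOXD3, a forkhead factor of the early crest with a single exon (chr1:63323041-63325126, plus strand), had 0 reads in all 12 MP41 libraries and opposite directions under FHT-1015 in the other lines at 24 h. The sequence upstream of its RefSeq start (chr1:63322317-63322566, plus strand) is shown because the gene had no reads in 1 line and was read in the others. It holds 1 E-box, CACGTG, 56 bases before the start, in capitals, and 1 SOX match 126 bases before it:
FOXD3: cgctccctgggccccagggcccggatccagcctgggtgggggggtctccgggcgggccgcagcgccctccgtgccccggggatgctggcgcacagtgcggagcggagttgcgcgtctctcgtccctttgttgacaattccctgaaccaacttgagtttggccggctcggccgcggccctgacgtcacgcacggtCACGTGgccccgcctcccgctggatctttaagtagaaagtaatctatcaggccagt
In DMSO at 4 h the mean of 92-1 was at least 98.2-fold, and that of MEL202 at least 243-fold, higher than 3 reads over the 3 MP41 libraries would give. In 92-1 at 4 h FOXD3 stood at 4.32, 4.68 and 5.84 CPM in DMSO and 12.4, 14.8 and 22.1 CPM with FHT-1015, an increase of 3.26-fold (log2 fold change 1.71, SE 0.24, adjusted p 7.79e-05). At 24 h it was at 2.72, 5.10 and 5.22 and 7.80, 7.003 and 8.02 CPM, 1.74-fold higher with the drug (log2 fold change 0.80, SE 0.26, adjusted p 0.0141). The groups did not overlap at either time, and the 24 h call was lost without DMSO replicate 1 (log2 0.51, adjusted p 0.0805). In MEL202 at 24 h the DMSO samples had 9.16, 8.61 and 8.82 CPM and the treated samples 3.03, 3.55 and 2.14 CPM, all lower, a decrease of 2.99-fold (log2 fold change -1.58, SE 0.29, adjusted p 0.00176). The 24 h effect in MEL202 minus that in 92-1 was -2.42 (SE 0.40, adjusted p 0.000414) on the log2 scale. In that contrast of 2 lines, chosen after the data were seen because MP41 has no reads, 3 of 10 members differed, TFAP2A, ETS1 and FOXD3, beside 5.35% of all genes. IDE196 raised FOXD3 at 24 h, from 10.5, 8.27 and 11.4 to 24.98, 22.8 and 24.04 CPM (log2 fold change 1.20, SE 0.16, adjusted p 4.38e-06), and at 4 h the groups overlapped (log2 fold change 0.071, SE 0.16, adjusted p 0.83). The antisense gene FOXD3-AS1 shares 179 exon bases with FOXD3. It also rose in 92-1 with FHT-1015 at 4 h, by a log2 fold change of 1.07 (adjusted p 0.000804), and at 24 h, from 8.34 to 18.9 CPM (log2 1.16, adjusted p 0.000124). With IDE196 at 24 h it rose by a log2 fold change of 1.21 (adjusted p 4.79e-06). Reads over exons of both genes are ambiguous in this count layout and stayed out of both values.

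SNAI2 (Slug, on chromosome 8), a zinc-finger repressor that melanocytes and their crest precursors express, rose at 4 h and fell at 24 h in 92-1 with FHT-1015. At 4 h the DMSO samples had 229, 227 and 190.4 CPM and the treated samples 611, 603 and 545 CPM, an increase of 2.68-fold (log2 fold change 1.42, SE 0.13, adjusted p 8.18e-07). At 24 h the values were 278, 191 and 181 CPM in DMSO and 80.3, 70.3 and 66.8 CPM with the drug, a decrease of 3.03-fold (log2 fold change -1.60, SE 0.13, adjusted p 6.1e-08). Groups were apart at both times, and the 24 h effect minus the 4 h effect was -3.02 (SE 0.19, adjusted p 1.41e-08) on the log2 scale. Both other lines were lower at 24 h too. In MP41, where the gene is low, it went from 13.2, 17.2 and 29.8 to 6.59, 2.41 and 7.82 CPM (log2 fold change -1.80, SE 0.41, adjusted p 0.00392), with no overlap. In MEL202 it went from 158, 166 and 169 to 77.98, 85.5 and 87.2 CPM (log2 fold change -0.95, SE 0.26, adjusted p 0.0201), and that call was lost on leaving out any 1 of the 6 samples at 24 h (adjusted p 0.0517 to 0.0874). At 4 h the log2 fold changes were 0.28 (SE 0.26, adjusted p 0.886) in MEL202 and 0.62 (SE 0.39, adjusted p 1) in MP41. The test for a difference among lines gave adjusted p 0.422 at 4 h, or 0.0239 with no filter on low counts, and adjusted p 0.331 at 24 h. IDE196 left SNAI2 at 151, 147 and 156 CPM beside 131, 163 and 161 at 4 h (log2 fold change -0.011, SE 0.10, adjusted p 0.965) and raised it at 24 h from 153, 153 and 171 to 296, 273 and 249.9 CPM (log2 fold change 0.73, SE 0.10, adjusted p 4.6e-06).

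ZEB1 and ZEB2 are zinc-finger homeobox repressors of epithelial genes, and ZEB2 is the form that melanocytes usually make. ZEB1 (chr10:31318495-31529814, plus strand) moved in opposite directions at the 2 times in 92-1 with FHT-1015. It had 5.85, 4.68 and 5.41 CPM in DMSO and 4.03, 2.91 and 1.94 CPM with the drug at 4 h (log2 fold change -0.84, SE 0.22, adjusted p 0.00939). At 24 h it had 7.50, 5.22 and 5.65 and 10.2, 8.71 and 10.1 CPM (log2 fold change 0.64, SE 0.21, adjusted p 0.014), with the groups apart at both times. The 24 h call was lost without DMSO replicate 2 or 3 (adjusted p 0.0627 and 0.0509). Both calls were lost in a fit of all 48 samples, which takes 1 spread for all lines (adjusted p 0.131 and 0.12). In MEL202 ZEB1 had 1 to 20 reads per sample and in MP41 27 to 144. EdgeR's test called it in neither line, with log2 fold changes at 24 h of 0.053 (SE 0.84) and -0.50 (SE 0.30). Limma-voom called it lower in MP41 at 24 h (log2 -0.57, adjusted p 0.0343). IDE196 raised it at 24 h from 6.62, 5.95 and 6.30 to 9.14, 10.9 and 11.6 CPM (log2 fold change 0.69, SE 0.15, adjusted p 0.000622), a call lost in a fit of all 48 samples (adjusted p 0.0712). The antisense gene ZEB1-AS1 shares 366 of its exon bases. It rose at 24 h in 92-1 with FHT-1015 (log2 1.22, adjusted p 0.000438) and with IDE196 (log2 1.61, adjusted p 0.000379), and its part in the ZEB1 values was not tested.

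ZEB2 (chr2:144364364-144524583, minus strand) was lowered by FHT-1015 in 92-1 at 4 h and raised by IDE196 at 24 h. At 4 h it had 123, 129 and 134 CPM in DMSO and 105, 106 and 85.7 CPM with FHT-1015, all treated samples lower (log2 fold change -0.40, SE 0.09, adjusted p 0.00319). The call was lost in a fit of all 48 samples (adjusted p 0.195). At 24 h its log2 fold change in 92-1 was -0.12 (SE 0.09, adjusted p 0.272), and the value was 0.052 when both stranded columns were added up. The antisense gene ZEB2-AS1, which shares 1299 exon bases with ZEB2, rose from 0.498 to 8.14 CPM in 92-1 at 24 h (log2 4.05, adjusted p 2.09e-07), and its part in the ZEB2 value was not tested. In MP41 at 24 h ZEB2 had 108, 80.7 and 123 CPM in DMSO and 163, 125 and 136 CPM with FHT-1015, without overlap (log2 fold change 0.50, SE 0.19, adjusted p 0.0556), and passed without DMSO replicate 3 (log2 0.60, adjusted p 0.0107), under limma-voom (log2 0.36, adjusted p 0.00778) and in a fit of all 48 samples (log2 0.45, adjusted p 0.044). In MEL202 the log2 fold change was 0.39 (SE 0.25, adjusted p 0.319), and 0.36 (adjusted p 0.0179) under limma-voom. With IDE196 at 24 h the values were 138, 146 and 128 CPM in DMSO and 238, 231 and 242 CPM with the drug (log2 fold change 0.74, SE 0.081, adjusted p 5.48e-07).

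TWIST1 (chr7:19020991-19117672, minus strand), a basic helix-loop-helix factor of crest and mesenchyme, was higher with FHT-1015 at 24 h in all 3 lines and lower with IDE196. In 92-1 at 24 h the DMSO samples had 31.1, 41.5 and 49.7 CPM and the FHT-1015 samples 117, 113 and 122 CPM, an increase of 2.84-fold (log2 fold change 1.50, SE 0.17, adjusted p 1.95e-06). MEL202 went from 54.8, 49.9 and 63.5 to 72.1, 110.3 and 98.4 CPM (log2 fold change 0.76, SE 0.24, adjusted p 0.0432), with no overlap. MP41 went from 25.5, 35.4 and 25.2 to 33.6, 63.5 and 43.7 CPM (log2 fold change 0.78, SE 0.22, adjusted p 0.0131), where the lowest treated sample lay below the highest DMSO sample. The 5 fibroblast markers summed to 2.56 to 4.12 CPM in the DMSO samples of that 92-1 experiment and to 3.12 to 12.4 CPM in its treated samples, with COL1A1 the 1 marker over 1 CPM. In MEL202 the sums were 2.15 to 3.97 CPM in DMSO and 3.13 to 12.5 CPM with FHT-1015, where the mean of COL1A1 passed 1 CPM in the treated samples alone, and in MP41 19.3 to 43.6 and 22.6 to 38.6 CPM. In the IDE196 experiment they were 6.85 to 33.04 CPM in DMSO and 12.3 to 25.7 CPM with the drug. Their part in the TWIST1 results was not tested. The antisense gene AC003986.2 shares 141 exon bases with TWIST1. The 92-1 rise held on leaving out each replicate. The MEL202 call was lost without replicate 1, 2 or 3 of DMSO, 2 or 3 of FHT-1015 at 24 h, or replicate 3 of FHT-1015 at 4 h, which enters the shared spread (adjusted p up to 0.182). The MP41 call was lost without DMSO replicate 1 (adjusted p 0.056) or FHT-1015 replicate 2 (0.0823), and in a fit of the 6 samples alone (0.0861). The difference among lines at 24 h had an adjusted p 0.114, 0.0385 without FHT-1015 replicate 2 of MP41 at 24 h, and 0.00481 under limma-voom. At 4 h in 92-1 TWIST1 had 29.03, 38.2 and 38.6 CPM in DMSO and 38.5, 46.5 and 57.7 CPM with FHT-1015, overlapping and not called by edgeR's test (log2 fold change 0.41, SE 0.17, adjusted p 0.0906). It was called with no filter on low counts (adjusted p 0.00265), under limma-voom (0.0333), and without FHT-1015 replicate 1 at 4 h (0.0294) or DMSO replicate 1 at 24 h (0.048). At 4 h the log2 fold change was -0.01 (SE 0.24, adjusted p 0.997) in MEL202 and 0.18 (SE 0.22, adjusted p 1) in MP41. IDE196 lowered TWIST1 3.33-fold at 24 h, from 60.1, 61.97 and 74.4 to 25.6, 19.1 and 16.1 CPM (log2 fold change -1.73, SE 0.15, adjusted p 3.22e-08). At 4 h it went from 42.4, 56.9 and 51.3 to 33.9, 35.2 and 39.1 CPM (log2 fold change -0.49, SE 0.15, adjusted p 0.0285). The 4 h call was lost without DMSO replicate 5 or 6 or IDE196 replicate 1 or 2 (adjusted p up to 0.133) and in a fit of all 48 samples (0.256).

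ETS1 (chr11:128458761-128587558, minus strand), an activator that binds GGA-core sites in crest and endothelial cells, fell with FHT-1015 at 24 h in the 3 lines, by more than any other member in MP41. In 92-1 at 24 h the DMSO samples had 338, 269 and 285 CPM and the treated samples 27.1, 23.05 and 23.8 CPM, a decrease of 12.2-fold (log2 fold change -3.61, SE 0.13, adjusted p 1.04e-11). In MEL202 the values were 223, 309 and 263 and 61.3, 49.2 and 57.8 CPM, 4.66-fold lower (log2 fold change -2.22, SE 0.22, adjusted p 2.4e-05). In MP41 they were 364, 304 and 456 and 74.8, 76.1 and 80.6 CPM, 4.69-fold lower (log2 fold change -2.23, SE 0.22, adjusted p 6.5e-06). The 3 endothelial markers summed to at most 1.70 CPM in any sample. Treated and DMSO samples were apart in each line, and the size of the effect differed among lines (adjusted p 0.000985). The effect in MEL202 minus that in 92-1 was 1.35 (SE 0.28, adjusted p 0.002) on the log2 scale. The 4 h values were unlike these. In 92-1 ETS1 was then at 298, 341 and 283 CPM in DMSO and 448, 469.7 and 341 CPM with FHT-1015 (log2 fold change 0.43, SE 0.12, adjusted p 0.0117), a rise whose call was lost without DMSO replicate 3 (adjusted p 0.0602) or FHT-1015 replicate 2 (0.0729) and in a fit of all 48 samples (0.113). In MEL202 and MP41 at 4 h the groups overlapped, with log2 fold changes of 0.43 (SE 0.22, adjusted p 0.624) and -0.051 (SE 0.21, adjusted p 1). The 24 h effect minus the 4 h effect was -4.04 (SE 0.17, adjusted p 8.21e-10) in 92-1, -2.65 (SE 0.31, adjusted p 0.000391) in MEL202 and, in MP41, -2.18 (SE 0.30, adjusted p 0.000339). IDE196 raised ETS1 slightly at 24 h, from 408, 366 and 325 to 554, 431 and 455 CPM (log2 fold change 0.34, SE 0.11, adjusted p 0.0118), a call lost without DMSO replicate 6 (adjusted p 0.0731) or IDE196 replicate 1 (0.0947) and in a fit of all 48 samples (0.0895).

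IRF4 (chr6:391739-411447, plus strand), the interferon regulatory factor with a pigmentation role in melanocytes, had the widest range of the 9 genes read in every line and moved oppositely with the 2 drugs in 92-1. Its promoter window is 74.0% G or C, beside a median of 58.7% over all windows, and the TFAP2 motif is itself rich in G and C. The 250 bases before the RefSeq start of IRF4 (chr6:391502-391751, plus strand) are shown because it is the member with the largest effects and a TFAP2 motif upstream. They hold 2 matches of GCCNNNGGC, in capitals, starting 212 and 58 bases before the start, and the window holds no match of the other motifs:
IRF4: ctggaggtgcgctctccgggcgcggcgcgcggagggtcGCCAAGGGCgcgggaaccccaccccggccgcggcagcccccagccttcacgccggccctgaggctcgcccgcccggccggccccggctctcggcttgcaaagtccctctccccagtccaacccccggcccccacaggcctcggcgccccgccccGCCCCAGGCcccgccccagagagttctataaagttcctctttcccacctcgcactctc
In 92-1 DMSO samples it was low, with 1.25, 0.914 and 0.553 CPM at 4 h and 2.39, 1.29 and 1.90 CPM at 24 h. With FHT-1015 the 3 samples together had 4 reads at 4 h against 48 in DMSO, a ratio per library size of 13.8 with a 95% counting interval of 5.07 to 52.9. At 24 h they had 2 reads against 102, a ratio of 41.3 with an interval of 11.1 to 346. The intervals cover counting error only. The fitted log2 fold changes, -3.68 (SE 0.67, adjusted p 0.000649) and -5.16 (SE 0.71, adjusted p 1.32e-05), depend on the prior count and are not bounds. MEL202 had 5.42, 4.71 and 3.94 CPM in DMSO at 24 h and 0.189, 0.391 and 0.326 CPM with FHT-1015 (log2 fold change -3.90, SE 0.52, adjusted p 0.000199), which is 354 against 21 reads. At 4 h its groups were apart at 6.39, 6.49 and 2.63 and 1.18, 2.24 and 0.699 CPM, yet the gene was not called (log2 fold change -1.90, SE 0.45, adjusted p 0.093). It was called at 4 h without DMSO replicate 3 (log2 -2.20, adjusted p 0.044) or without FHT-1015 replicate 2 (log2 -2.48, adjusted p 0.0216). DESeq2, limma-voom, a fit of all 48 samples and a fit with no filter on low counts called it too.

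MP41 was the line with high IRF4, and there edgeR's test called the gene at neither time. Its DMSO samples had 106, 109 and 93.9 CPM at 24 h and its FHT-1015 samples, all higher, 124, 121 and 127 CPM (log2 fold change 0.33, SE 0.17, adjusted p 0.143). At 4 h the values were 115, 90.7 and 101 CPM in DMSO and 80.4, 49.7 and 72.9 CPM with the drug, all lower, and not called (log2 fold change -0.60, SE 0.17, adjusted p 0.261), while limma-voom called it lower (log2 -0.65, adjusted p 0.00225). The 24 h effect in MP41 was above the 4 h effect by 0.92 (SE 0.24, adjusted p 0.0163) on the log2 scale, a call lost without DMSO replicate 1 at 4 h (adjusted p 0.053). The FHT-1015 effect on IRF4 differed among the lines at 24 h (adjusted p 8.26e-08) and at 4 h (adjusted p 0.0285). The 4 h call was lost on leaving out any 1 of 9 of the 36 samples (adjusted p up to 0.0827). With IDE196 in 92-1 IRF4 rose. At 4 h the DMSO samples had 0.667, 0.511 and 0.190 CPM and the IDE196 samples 1.15, 1.35 and 1.04 CPM (log2 fold change 1.35, SE 0.35, adjusted p 0.0128), a call lost without DMSO replicate 6 (log2 0.98, adjusted p 0.0596), with the 6 samples alone (adjusted p 0.066) and in a fit of all 48 samples (0.054). At 24 h the values were 0.373, 0.252 and 0.272 CPM in DMSO and 9.74, 9.51 and 7.79 CPM with IDE196, 28.6-fold higher (log2 fold change 4.84, SE 0.33, adjusted p 1.7e-09), or 521 reads against 19. The other DMSO set of 92-1 had a mean of 1.86 CPM at 24 h, so the size of that fold depends on the set. MP41 DMSO samples at 24 h, from another experiment and given for scale alone, had 106, 109 and 93.9 CPM.

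Set side by side in 92-1, the drugs differed in most of the 10 genes. In a fit of the 24 samples of 92-1, the FHT-1015 effect minus the IDE196 effect passed the test for 8 of 10 members at 4 h, beside 24.6% of all genes, and for 7 of 10 at 24 h, beside 33%. Each drug was compared with its own DMSO samples. At 24 h the log2 difference was -10.01 (SE 0.71, adjusted p 1.08e-11) for IRF4, -3.96 (SE 0.18, adjusted p 9.07e-16) for ETS1 and -2.33 (SE 0.17, adjusted p 2.58e-11) for SNAI2, all lower with FHT-1015. For TWIST1 it was 3.24 (SE 0.25, adjusted p 4.61e-11), higher with FHT-1015. TFAP2A, at -1.78 (SE 0.16, adjusted p 1.2e-09), and ZEB2, at -0.86 (SE 0.12, adjusted p 1.66e-06), were also lower with FHT-1015. TFAP2C fell with both drugs, and more with FHT-1015 at 24 h (log2 difference -1.35, SE 0.36, adjusted p 0.00396), whereas at 4 h the difference was 0.12 (SE 0.32, adjusted p 0.847). FOXD3 rose with both at 24 h and the difference, -0.39 (SE 0.31, adjusted p 0.372), did not pass. The IRF4 values rest on 2 to 4 reads with FHT-1015 and depend on the prior count. They also rest on 30 reads at 4 h and 19 at 24 h in the DMSO set of IDE196. The largest differences at 4 h were in IRF4, at -5.04 (SE 0.73, adjusted p 8.53e-06), FOXD3, at 1.63 (SE 0.30, adjusted p 0.000185), and SNAI2, at 1.43 (SE 0.17, adjusted p 4.2e-07). The 4 h difference in ETS1, 0.45 (SE 0.17, adjusted p 0.0487), was lost on leaving out any 1 of 18 of the 24 samples (adjusted p up to 0.164).

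**Figure D4:**
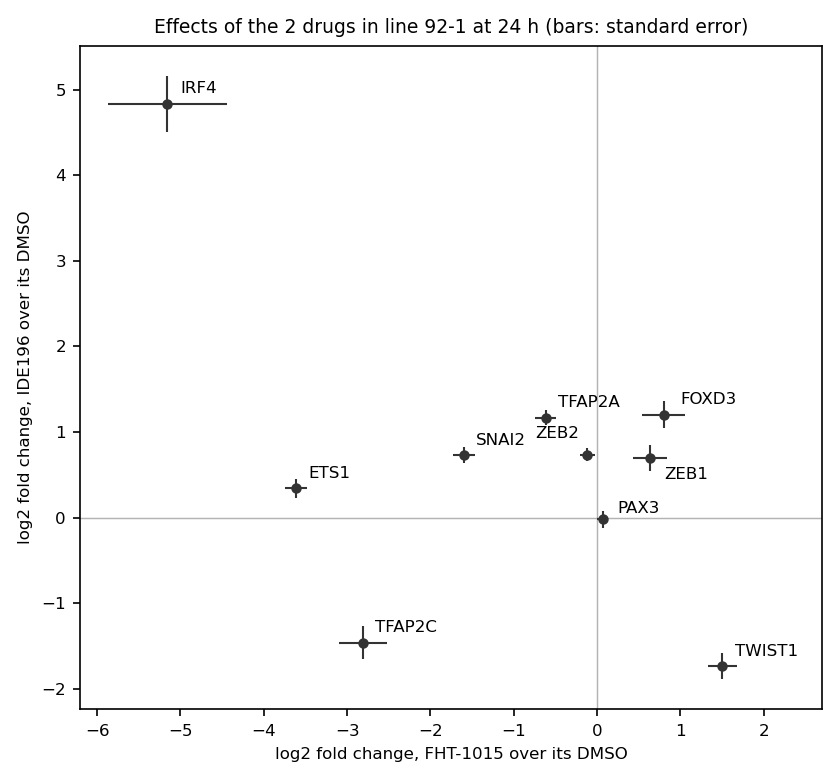
Log2 fold change with FHT-1015 (horizontal) against that with IDE196 (vertical) in 92-1 at 24 h, each over its own DMSO samples, 1 point per gene with bars of 1 standard error. IRF4 is far to the lower side with FHT-1015 and far to the higher side with IDE196, TWIST1 is the reverse, and TFAP2C is below 0 on both axes.

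The 2 DMSO sets of 92-1 were not alike, so each drug effect was taken against its own set. Levels between lines were tested with the set of the FHT-1015 experiment and, as an alternative, with the other. At 4 h 5 of 10 members differed between the sets, beside 46.1% of all genes, and at 24 h 6 of 10, beside 45.2%. FOXD3 was higher in the set of the IDE196 experiment by 1.24 (SE 0.22, adjusted p 6.41e-05) at 4 h and 1.27 (SE 0.23, adjusted p 7.36e-05) at 24 h on the log2 scale. At 24 h IRF4 was lower there, at -2.58 (SE 0.42, adjusted p 2.09e-05). With the IDE196 set as the 92-1 reference, the higher FOXD3 of MEL202 over 92-1 in DMSO at 4 h was no longer called (adjusted p 0.776), and neither was the lower SNAI2 (adjusted p 0.18).

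The effect of a drug changed between 4 h and 24 h for several members. With FHT-1015 in 92-1 the difference between the times passed for 6 of 10 members, beside 45.5% of all genes. The count was 3 of 10 in MEL202, beside 6.89%, and 4 of 9 in MP41, beside 18.6%. With IDE196 it was 6 of 10, beside 30.7%. ETS1 passed in the 3 lines with FHT-1015. Calls lost on leaving out 1 library were FOXD3 in 92-1 (9 of 12 libraries, adjusted p up to 0.127), FOXD3 in MEL202 (DMSO replicate 1 or 3 or FHT-1015 replicate 1 or 3 at 24 h, up to 0.0656), TFAP2A in MP41 (5 of 12 libraries, up to 0.0933) and IRF4 in MP41 (DMSO replicate 1 at 4 h, 0.053). FOXD3 in 92-1 was also lost with RLE (0.0505) or library-size scaling (0.0685). SNAI2 in MEL202 passed without DMSO replicate 3 (0.0268) or FHT-1015 replicate 2 at 4 h (0.0172), and ZEB2 in MP41 without DMSO replicate 3 at 24 h (0.0092). TFAP2C in 92-1 with FHT-1015 passed without FHT-1015 replicate 2 at 4 h (0.0414) or replicate 1 at 24 h (0.0153). With IDE196 TFAP2C passed without IDE196 replicate 2 at 24 h (0.0214), ZEB1 without IDE196 replicate 1 at 4 h (0.0443) and ETS1 without DMSO replicate 4 at 24 h (0.0442). Among the lines, the FHT-1015 effect differed for 2 of 10 members at 4 h, TFAP2C and IRF4, beside 1.38% of all genes. At 24 h it differed for 5 of 10, TFAP2A, TFAP2C, FOXD3, ETS1 and IRF4, beside 12%. At 4 h FOXD3 also passed with no filter on low counts (adjusted p 0.044) and under limma-voom (0.0258), and, without MEL202 DMSO replicate 2 at 4 h, FOXD3 (0.0202) and ZEB2 (0.0282) passed. At 24 h limma-voom also called PAX3 (0.000294), ZEB1 (0.000354) and ZEB2 (0.0203).

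Other genes of the lineage were counted in the same comparisons. The shares of all genes called at 24 h, against which the list counts at that time are to be read, were 60.6% in 92-1, 18.8% in MEL202 and 36.1% in MP41 with FHT-1015 and 58.1% with IDE196. Of 18 further neural crest and melanoblast genes, 16 were tested in 92-1, and with FHT-1015 at 24 h 7 rose and 8 fell, with a list median log2 fold change of -0.24 against -0.00082 over all genes. SOX10, the crest factor that acts with PAX3 on MITF, was the largest fall at both times in each line among the called genes of the list averaging 5 CPM or more over all 12 samples of the experiment, both times included, the rule by which genes of these lists are named. In 92-1 it went from 443 to 14.8 CPM, log2 -4.94 (SE 0.15, adjusted p 2.34e-11) at 4 h and from 569.8 to 22.5 CPM, log2 -4.69 (SE 0.15, adjusted p 3.14e-12) at 24 h. In MEL202 at 24 h it went from 605 to 13.8 CPM, log2 -5.43 (SE 0.28, adjusted p 9.17e-08), and in MP41 at 24 h from 1145 to 40.8 CPM, log2 -4.74 (SE 0.22, adjusted p 7.09e-08). NR2F1, an orphan nuclear receptor of crest cells, was the largest rise by the same rule in 92-1 at 24 h, from 3.54 to 56.95 CPM, log2 3.99 (SE 0.19, adjusted p 1.36e-10), and in MEL202, from 7.88 to 50.9 CPM, log2 2.71 (SE 0.23, adjusted p 6.06e-06). In MEL202 6 of 17 tested rose and 5 fell at 24 h, and in MP41 5 of 18 rose and 6 fell. In both of these lines SOX10 fell and TBX3, a T-box factor of melanoblasts, rose at 4 h, with the other tested genes of the list not called. With IDE196 at 24 h 10 of 16 rose and 1 fell, for a list median of 0.59 against 0.029. ERBB3, a neuregulin receptor of crest cells, rose most by that rule, from 193 to 909 CPM, log2 2.19 (SE 0.11, adjusted p 8.54e-11).

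Among 11 close relatives of the members, ETS2, the paralogue of ETS1, fell with FHT-1015 in 92-1 at 4 h, from 69.1 to 23.3 CPM, log2 -1.59 (SE 0.12, adjusted p 9.28e-08). ETS1 was higher at that time. At 24 h ETS2 fell in 92-1, from 56.2 to 7.57 CPM, log2 -2.91 (SE 0.13, adjusted p 8.06e-11), and in MP41, from 27.04 to 4.75 CPM, log2 -2.44 (SE 0.16, adjusted p 1.87e-07). In MEL202 the largest fall at 24 h was that of TWIST2, the paralogue of TWIST1, from 6.53 to 2.30 CPM, log2 -1.49 (SE 0.33, adjusted p 0.0063). Named after their values were seen, ETS2 also fell in MEL202 (log2 -1.29, adjusted p 0.00266) and TWIST2 in 92-1 (log2 -0.57, adjusted p 0.0485) and MP41 (log2 -0.91, adjusted p 0.00424). TWIST1 was called higher in those 3 comparisons. In 92-1 at 24 h 1 of 8 tested relatives rose and 4 fell, beside 60.6% of all genes called. In MEL202 0 of 7 rose and 2 fell, beside 18.8%, in MP41 0 of 7 rose and 5 fell, beside 36.1%, and with IDE196 0 of 8 rose and 3 fell, beside 58.1%. The list medians at 24 h were -0.20 against -0.00082 over all genes in 92-1, -0.43 against -0.0055 in MEL202, -0.81 against 0.065 in MP41 and -0.089 against 0.029 with IDE196.

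Of 12 epithelial genes known as targets of ZEB and SNAI repression, 4 to 7 were expressed enough to test. ESRP1, an epithelial splicing regulator, fell with FHT-1015 at 24 h in 92-1, from 52.9 to 25.3 CPM, log2 -1.09 (SE 0.10, adjusted p 1.4e-07). It also fell in MEL202, from 90.0 to 18.1 CPM, log2 -2.29 (SE 0.54, adjusted p 0.00887), and in MP41, from 31.5 to 6.24 CPM, log2 -2.30 (SE 0.30, adjusted p 6.09e-05). IDE196 raised it at 24 h, from 39.1 to 166 CPM, log2 2.04 (SE 0.091, adjusted p 1.79e-11). At 24 h 1 of 5 tested rose and 2 fell in 92-1 and in MEL202, 0 of 4 rose and 2 fell in MP41, and 2 of 7 rose with none falling under IDE196. The list medians there were -0.47 against -0.00082, 0.28 against -0.0055, -1.13 against 0.065 and -0.26 against 0.029. Of 12 mesenchymal genes, 4 of 8 tested rose and 2 fell in 92-1 with FHT-1015 at 24 h, and 6 of 8 rose and none fell with IDE196. The 4 that rose with FHT-1015 were CDH2, POSTN, COL1A1 and VIM. CDH2, the N-cadherin gene, went from 0.434 to 17.9 CPM (log2 5.34, adjusted p 3.59e-10). The matrix genes POSTN, from 0.248 to 7.96 CPM (log2 4.97, adjusted p 2.96e-08), and COL1A1, from 2.92 to 11.2 CPM (log2 1.92, adjusted p 8.47e-07), followed. These 3 average under 5 CPM over the 12 samples and were named after their values were seen. VIM, an intermediate filament gene named by the rule, rose less, from 712 to 1130.2 CPM, log2 0.64 (SE 0.15, adjusted p 0.0013). In MEL202 2 of 10 rose and 2 fell and in MP41 1 of 8 rose and 2 fell, and the list medians in the 4 comparisons at 24 h were 0.23 against -0.00082, 0.22 against -0.0055, -0.11 against 0.065 and 1.28 against 0.029.

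The 9 pigment genes, targets of MITF and SOX10 in large part, were mostly lower with FHT-1015 at 24 h. All 9 fell in 92-1, 8 of 9 in MEL202 and 8 of 8 tested in MP41, with list medians of -3.34 against -0.00082, -2.21 against -0.0055 and -2.26 against 0.065 over all genes. TRPM1, a melanocyte channel gene regulated by MITF, fell most in each line among called genes averaging 5 CPM or more over the 12 samples, although in 92-1 DCT, below that mean, fell more (log2 -5.81, named after its value was seen). TRPM1 went from 111 to 2.50 CPM, log2 -5.48 (SE 0.16, adjusted p 1.76e-12) in 92-1, from 68.2 to 1.66 CPM, log2 -5.33 (SE 0.28, adjusted p 9.17e-08) in MEL202 and from 56.7 to 2.25 CPM, log2 -4.61 (SE 0.28, adjusted p 1.3e-07) in MP41. With IDE196 at 24 h 2 of 9 rose and 3 fell, with a median of -0.054 against 0.029. At 4 h 6 of 9 fell and 1 rose in 92-1 with FHT-1015, beside 29.5% of all genes called, and none of those tested was called in MEL202, in MP41 or with IDE196.

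Across the 48 samples, as log2 CPM minus the DMSO mean of the same experiment and time, SNAI2 and ETS1 moved most alike among the members (Pearson r 0.828), and TWIST1 and IRF4 were the most opposed pair (r -0.805). These are descriptions over samples that share lines and drugs, with no p. For the members called in at least 4 of the 8 comparisons, the protein-coding genes of most similar pattern were sought among 10494. For ETS1 they were SGCD, a sarcoglycan gene (r 0.955), TRPM1 (r 0.95) and PMP22, a myelin gene (r 0.943). For TWIST1 they were GPR37 (r 0.913), CTXN1 (r 0.899) and KHDRBS3 (r 0.885). For IRF4 they were SOX13 (r 0.911), OLFML2A (r 0.9) and GPR158 (r 0.889). The first genes for SNAI2, TFAP2C, TFAP2A and FOXD3 were PREP (r 0.865), ATP6V0A2 (r 0.873), IRS2 (r 0.857) and SYS1 (r 0.772).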

How the data were processed

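Poly-A RNA was sequenced in 48 samples of 16 groups. The deposited values are raw read counts per gene in the layout of STAR's gene counts, per the file headers and summary lines, with an unstranded column and a column for each strand. The submitters' processing notes name hg38 and limma without a role. The annotation counted on is not given in the sources used here. Tests used the unstranded column, because the first strand took 49.73 to 50.11% of stranded reads. Summary lines (unmapped, multimapped, outside genes, ambiguous), 17.09 to 22.74% of a library, and 92 spike-in rows with 0 reads stayed out. Ambiguous reads were 9.35 to 11.83%. Symbols and positions come from GENCODE release 29 (GRCh38), which holds 58552 of 58870 identifiers, 47420 under the same version.

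Each experiment (12 samples) was fitted with edgeR 4.0.16 in R 4.3.3, with TMM, filterByExpr, quasi-likelihood F-tests and Benjamini-Hochberg adjustment over all genes tested, called at an adjusted p under 0.05. All adjusted p-values in the text are from that test unless another tool is named. Standard errors are the log2 fold change over the square root of F. Differences among lines came from 1 fit of 36 samples and those between drugs from 1 of 24. CPM values share 1 TMM normalisation of the 48 samples. Replicates of a group differed beyond sampling noise, with a chi-square per degree of freedom of 4.175 or more. Upstream sequences are RefSeq's, GRCh38.p14. Alternatives were RLE or library-size scaling, no filter, DESeq2 1.42.0, limma-voom (limma 3.58.1) with quality weights, summed stranded columns, the 6 samples alone, all 48 together, a replicate block and leaving out each replicate. For levels they were the DMSO samples at 24 h and the other DMSO set of 92-1. The MEL202 against 92-1 contrast and the basic exon set were added after seeing the data. The members and gene lists were chosen with earlier results of these data known. Named are the 10 members, the largest called rise and fall of each list averaging 5 CPM or more over the experiment's 12 samples, overlapping genes, and for members called in at least 4 of 8 comparisons the 3 most similar protein-coding genes. Values of 1 list gene so named are left out of the text.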

Additional observations from a re-analysis of the deposited data

Results flagged for a closer look

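Several members had a drug effect at 24 h that differed from the effect at 4 h, by the test of the difference in edgeR's quasi-likelihood fit. With FHT-1015 in 92-1 the adjusted p was 0.00964 for TFAP2A, 0.0491 for FOXD3, 1.41e-08 for SNAI2, 0.00092 for ZEB1, 0.00168 for TWIST1 and 8.21e-10 for ETS1. In MEL202 it was 0.000359 for TFAP2C, 0.0218 for FOXD3 and 0.000391 for ETS1. In MP41 it was 0.021 for TFAP2A, 0.00957 for SNAI2, 0.000339 for ETS1 and 0.0163 for IRF4. With IDE196 in 92-1 it was 0.00165 for TFAP2A, 0.000936 for FOXD3, 0.000484 for SNAI2, 0.000267 for ZEB2, 0.000208 for TWIST1 and 6.68e-05 for IRF4.

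The FHT-1015 effect differed among the 3 lines at 4 h for TFAP2C (adjusted p 0.00625) and IRF4 (0.0285). At 24 h it differed for TFAP2A (7.57e-06), TFAP2C (7.16e-06), FOXD3 (0.000716), ETS1 (0.000985) and IRF4 (8.26e-08). FOXD3 has no reads in MP41, so its difference among lines rests on 92-1 and MEL202.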

How the results depend on the processing

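Of the 101 called results, 19 of 555 values under other settings and 78 of 1428 with 1 library left out were no longer past the threshold, and none of either changed direction. The number of members called moved by over 1.5 times in these cases. With FHT-1015 in 92-1 at 4 h it was 4 with all 48 samples in one fit. In MEL202 at 4 h it was 1 with no filter on low counts, DESeq2, limma-voom or all 48 samples. In MP41 at 4 h it was 2 with limma-voom, and with IDE196 at 4 h it was 2 with all 48 samples. For the difference among lines it was 4 at 4 h with no filter and 9 at 24 h with limma-voom. The cause was not tested. On leaving out 1 library the count ranged from 0 to 1 in MEL202 at 4 h, from 2 to 4 with IDE196 at 4 h and from 0 to 4 for the lines at 4 h.

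Uncalled log2 values that changed sign with FHT-1015 in 92-1 were TFAP2A at 4 h (-0.036, summed stranded columns), PAX3 at 4 h (0.0045, library size, and 0.010, limma-voom) and ZEB2 at 24 h (0.052, summed stranded columns). At 4 h in MEL202 they were TFAP2C (0.0066, library size), PAX3 (-0.0090, limma-voom) and TWIST1 (0.051, library size, and 0.011, 6 samples). They were ETS1 in MP41 at 4 h (0.020, limma-voom) and PAX3 with IDE196 at 24 h (0.021, library size, and 0.026, all 48 samples). For levels of MEL202 against 92-1 they were TFAP2A (0.090, DMSO at 24 h), ZEB2 (-0.38) and TWIST1 (-0.071), the last pair with the other DMSO set of 92-1. For MP41 against 92-1 ZEB2 was -0.10 with that set and -0.071 at 24 h. TFAP2C between the drugs at 4 h was -0.15 with limma-voom. ZEB2 in MP41 against MEL202 changed sign and was called at 24 h (-0.75, adjusted p 0.00192).

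Leaving out 1 library moved uncalled log2 values across 0 as well. In 92-1 at 4 h with FHT-1015 TFAP2A ranged from -0.082 to 0.12. In MEL202 at 4 h TFAP2C ranged from -0.27 to 0.11, FOXD3 from -0.16 to 0.25 and TWIST1 from -0.16 to 0.18, and at 24 h ZEB1 ranged from -0.44 to 1.26. For 24 h minus 4 h in MEL202 TFAP2A ranged from -0.056 to 0.18 and ZEB2 from -0.27 to 0.25. In MP41 at 4 h TFAP2C ranged from -0.58 to 0.19, PAX3 from -0.018 to 0.092 and ETS1 from -0.23 to 0.15, and at 24 h TFAP2C from -0.063 to 0.44. With IDE196 at 4 h PAX3 ranged from -0.11 to 0.012, FOXD3 from -0.096 to 0.26, SNAI2 from -0.11 to 0.049 and ETS1 from -0.093 to 0.036. PAX3 with IDE196 ranged from -0.11 to 0.079 at 24 h and from -0.051 to 0.13 for 24 h minus 4 h. ZEB2 in MEL202 against 92-1 ranged from -0.24 to 0.30. Between the drugs TFAP2C ranged from -0.094 to 0.31 and PAX3 from -0.050 to 0.089 at 4 h, and ZEB1 from -0.14 to 0.13 at 24 h.

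Same-numbered FHT-1015 and DMSO samples correlated above 0.1 in 7 of 18 pairs (-0.322 to 0.508), and 11 of 18 correlated best with their own number, all 6 in MP41 among them. With the replicate block the members called numbered 8 at 4 h and 8 at 24 h in 92-1, 0 and 6 in MEL202 and 0 and 5 in MP41. The block called TWIST1 in 92-1 at 4 h (log2 0.40, adjusted p 0.0154), ZEB2 in MP41 at 24 h (log2 0.52, adjusted p 0.0478) and TFAP2C for 24 h minus 4 h in 92-1 (log2 -0.88, adjusted p 0.0422), and lost no call. The IDE196 and DMSO samples share no numbers. At this depth ZEB1 had 1 to 20 reads per sample in MEL202 and TFAP2C 9 to 64 in MP41.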
